A study of Rattus norvegicus with 12 samples.

Results

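A set of 7 genes of the antioxidant defence was followed through a knockdown of Bcl-2 in OC1 cells. They were fixed by gene ID as the regulator Nfe2l2 (ENSRNOG00000001548), the NRF2 targets Hmox1 (ENSRNOG00000014117), Nqo1 (ENSRNOG00000012772) and Gclc (ENSRNOG00000006302), and the enzymes Sod1 (ENSRNOG00000002115), Sod2 (ENSRNOG00000019048) and Cat (ENSRNOG00000008364). All 7 were among the 23978 genes measured, and all 7 were among the 12731 that passed the filter on low counts. The symbols come from the list that defined the set. The deposited table holds IDs only, and the RefSeq gene table used here holds 0 rat Ensembl IDs. The pairing of ID and symbol therefore could not be checked against an annotation.

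OC1 is labelled as a rat line of cochlear sensory epithelial cells, grown in DMEM with serum and given siRNA with a lipid reagent. Control libraries came from cells with a negative control siRNA (genotype tag WT), and the other groups from cells with siRNA 1423 or siRNA 1928 against Bcl-2 (genotype tag Bcl-2 knockdown), with 4 libraries in each of the 3 groups, lettered A to D. The treatment tag names a plasmid where the protocol names siRNA, no time after transfection is given, and a mouse line with a like name exists, so the species of origin rests on the labels alone. If the cells were of mouse origin, the counts would be of mouse reads on rat genes, the levels would depend on how well each gene matched, and the rat promoter sequences would not be those of the cells. Library totals ran from 15671546 to 23247593 expected counts (estimated read numbers). Neither Bcl2 nor markers of cochlear epithelium or other cell types were analysed here, for want of symbols, so the knockdown and the labelled cell type were not checked. Nothing says that the lettered libraries were separate cultures, and the p-values measure only the spread between them, which may be technical.

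NRF2, the protein of Nfe2l2, is a transcription factor that is held at a low level by the adaptor KEAP1 until oxidants or electrophiles free it. It then binds antioxidant response elements together with small MAF proteins and raises enzymes such as haem oxygenase (Hmox1), the quinone reductase NQO1 and the catalytic subunit of glutamate-cysteine ligase (Gclc), which starts glutathione synthesis. Superoxide is removed by SOD1 in the cytosol and SOD2 in the mitochondrial matrix, and catalase (Cat) breaks down the hydrogen peroxide they form, mainly in peroxisomes. Hair cells of the cochlea are known to be sensitive to oxidative damage, and BCL-2 acts at the outer membrane of mitochondria, a main source of superoxide.

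Promoter windows from RefSeq (assembly GRCr8, 250 bases before to 50 after the annotated start) were matched by symbol for 6 of the 7 genes, all but Hmox1. They were searched on both strands for the core of the antioxidant response element, TGACNNNGC (GCNNNGTCA on the other strand). It was present in 2 of the 6 windows, those of Sod2 and Nfe2l2, and in 12.1% of all 33469 windows of this length. Sequence more than 250 bases before the start was not searched. A window without the core therefore does not show that the gene, Nqo1 and Gclc included, lacks such an element. Nqo1 is shown because its transcript changed most over both siRNAs, and the other sequences because they hold the core, in capitals. The Sod2 match lay at -35 to -27 relative to the start, on the opposite strand, and the Nfe2l2 match at bases 39 to 47 of the transcript. The build of the counts is mRatBN7.2 in the submitters' processing notes, so these windows describe the genes and not the counted regions.

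Nqo1, 250 bases upstream of the start, GRCr8 chr19:52220268-52220517, minus strand: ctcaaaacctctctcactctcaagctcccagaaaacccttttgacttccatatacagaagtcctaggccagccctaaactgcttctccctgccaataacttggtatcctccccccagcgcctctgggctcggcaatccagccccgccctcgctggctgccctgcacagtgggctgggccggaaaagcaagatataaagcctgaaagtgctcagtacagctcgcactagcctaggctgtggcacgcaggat
Sod2, 250 bases upstream of the start, GRCr8 chr1:50050169-50050418, minus strand: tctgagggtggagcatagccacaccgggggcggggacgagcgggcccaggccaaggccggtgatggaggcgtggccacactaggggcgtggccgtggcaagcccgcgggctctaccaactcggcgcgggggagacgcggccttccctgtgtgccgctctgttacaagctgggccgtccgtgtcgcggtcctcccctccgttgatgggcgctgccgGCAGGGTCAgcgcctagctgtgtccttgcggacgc
Nfe2l2, bases 29 to 50 of the transcript, GRCr8 chr3:81028950-81028971, minus strand: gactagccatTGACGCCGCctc

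The antioxidant genes did not move as a block. With siRNA 1423 the transcripts of Sod2 and Cat fell and no member rose. With siRNA 1928 Nqo1 and Sod2 rose while Gclc and Sod1 fell, and Nfe2l2, Hmox1 and Cat did not pass the test. No change reached 1.5-fold: the largest between an siRNA and the control were a 1.27-fold rise of Nqo1 with siRNA 1928 and a fall of Cat to 0.789 of control with siRNA 1423. A gene is called changed at a Benjamini-Hochberg adjusted p under 0.05 over all 12731 genes in edgeR's quasi-likelihood test, and levels are counts per 1000000 (CPM) scaled by trimmed means of M values (TMM). All fold changes below are on the log2 scale with their standard error (SE).

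Against the control, siRNA 1423 lowered 2 of the 7 members and raised 0, where 11.5% of all tested genes were called lower and 11.3% higher. Groups did not overlap for 2 members, against 23.7% of all tested genes. The median log2 fold change of the members was -0.11 and that of all tested genes -0.0012, with median absolute values of 0.11 and 0.10. With siRNA 1928, 2 members rose and 2 fell, where 21.8% of tested genes were called higher and 23.3% lower. Here 4 members did not overlap with the control, against 39.4% of tested genes, and the median absolute log2 fold change was 0.12 in the members and 0.15 in all genes. Both comparisons use the same 4 control libraries. In either direction, 2 of 7 members were called with siRNA 1423, against 22.8% of all tested genes, and 4 of 7 with siRNA 1928, against 45.2%. The members were more abundant than most tested genes: even for Sod1, the lowest, 62.2% of them lay below. In a fit of genes averaging at least 5 CPM, the shares called were 27.4% with siRNA 1423 and 51.8% with siRNA 1928. In bulk RNA, a lower transcript level per cell and fewer cells that express the gene cannot be told apart.

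**Figure D1:**
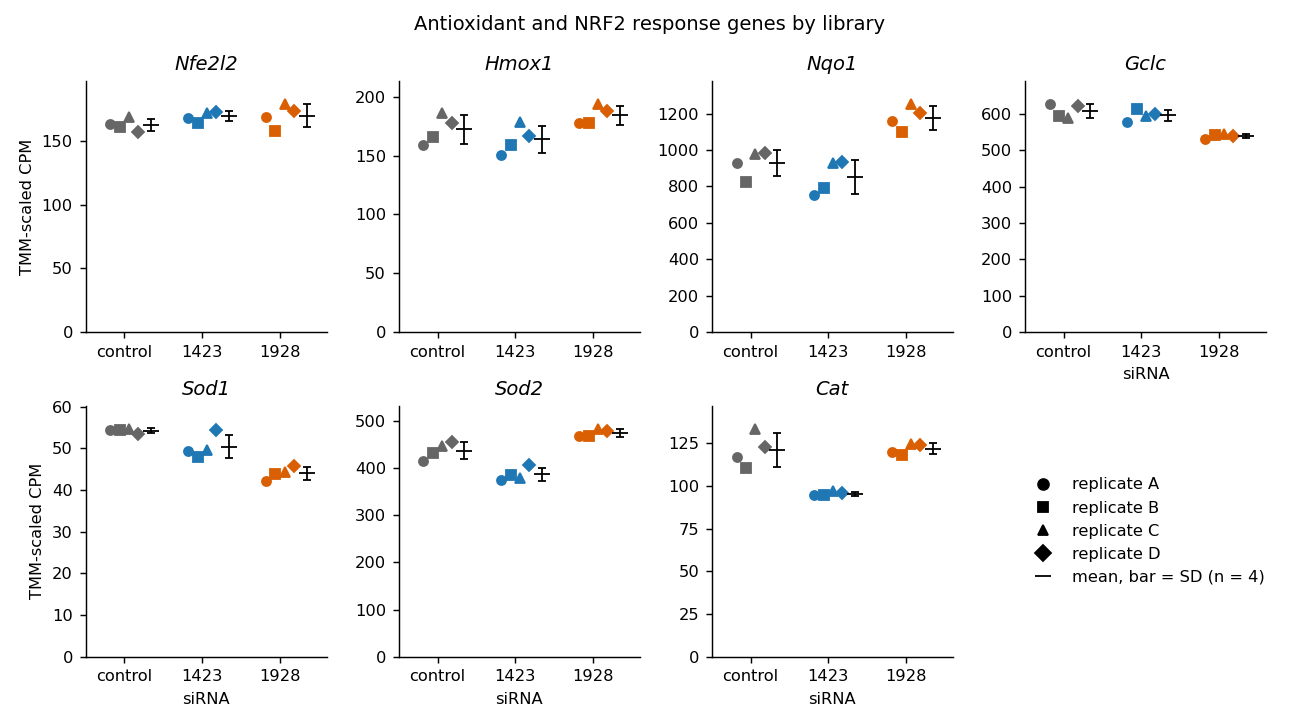
TMM-scaled CPM of each gene (vertical axes start at 0) in the 12 libraries, by siRNA; symbols give the replicate letter, and the bars the mean and SD of 4 libraries. Nqo1 and Sod2 of siRNA 1928 lie above every control library, Gclc and Sod1 of siRNA 1928 below, and Cat and Sod2 of siRNA 1423 below.

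The regulator came first. Nfe2l2 stood at 163, 161, 169 and 157 CPM in control libraries A to D, at 169, 165, 172 and 173 CPM with siRNA 1423 and at 169, 158, 179 and 173 CPM with siRNA 1928. The 3 groups overlapped, with means of 163 ± 4.84, 170 ± 3.95 and 170 ± 8.88 CPM (SD, n = 4 each). Its log2 fold change was 0.06 with siRNA 1423 (SE 0.036, adjusted p = 0.247) and 0.07 with siRNA 1928 (SE 0.036, adjusted p = 0.147). The 95% interval of the difference between the siRNAs ran from -0.07 to 0.08 on the log2 scale. The transcript level of Nfe2l2 does not measure NRF2 protein, which is set largely by its degradation. The log2 fold change with siRNA 1928 passed the test with library size alone (0.12, adjusted p = 0.00627) and with replicates C and D alone (0.11, adjusted p = 0.0267). It also passed without replicate B of siRNA 1928 (0.10, adjusted p = 0.0298). It shrank to 0.0149 with replicates A and B alone (adjusted p = 0.825) and to 0.04 without replicate C of siRNA 1928 (adjusted p = 0.436). Over all alternatives adjusted p ranged from 0.00627 to 0.825.

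Hmox1, which opens the haem ring and yields biliverdin, iron and carbon monoxide, was at 159, 166, 186 and 178 CPM in the control libraries. Its levels were 151, 159, 178 and 167 CPM with siRNA 1423 and 178, 178, 194 and 188 CPM with siRNA 1928. Both siRNA groups overlapped with the control. The log2 fold changes from control were -0.07 with siRNA 1423 (SE 0.0498, adjusted p = 0.334) and 0.10 with siRNA 1928 (SE 0.0493, adjusted p = 0.108), neither past the threshold. Single libraries moved both: leaving out each in turn gave -0.12 (without replicate C of siRNA 1423) to -0.03 (without control replicate C) with siRNA 1423, and 0.06 (without control replicate A) to 0.14 (without control replicate C) with siRNA 1928. Between the siRNAs Hmox1 differed, at 0.17 higher with siRNA 1928 (SE 0.0496, adjusted p = 0.00784), although the highest library of siRNA 1423 (178.3 CPM) lay just above the lowest of siRNA 1928 (177.5 CPM). The value with siRNA 1928 passed the test with library size alone (0.16, adjusted p = 0.0106), with replicates A and B alone (0.13, adjusted p = 0.0219) and without control replicate C (adjusted p = 0.0252). It also passed with the letter as a replicate block (0.10, adjusted p = 0.00508), within a range of 0.00508 to 0.337 over all alternatives.

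Nqo1 showed the widest span of the members. NQO1 reduces quinones to hydroquinones, and its transcript is widely used as a readout of NRF2 activity. Control libraries A to D held 929, 825, 978 and 981 CPM, those of siRNA 1423 held 750, 790, 927 and 932 CPM, and those of siRNA 1928 held 1158, 1097, 1253 and 1201 CPM. Every library of siRNA 1928 was above all 8 others, while the control and siRNA 1423 overlapped. The group means were 929 ± 72.8, 850 ± 93.5 and 1177 ± 66.1 CPM (SD, n = 4 each). With siRNA 1928 Nqo1 rose by 0.34 (SE 0.0603, adjusted p = 7.48e-05), and it was 0.47 higher than with siRNA 1423 (SE 0.0605, adjusted p = 1.43e-06), an absolute difference exceeded by 10.8% of tested genes.

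With siRNA 1423 the log2 fold change of Nqo1 was -0.13 (SE 0.0605, adjusted p = 0.141), which did not pass the test. It passed with replicates A and B alone (-0.19, adjusted p = 0.00471) and not with C and D alone (-0.08, adjusted p = 0.0725). It also passed with the letter as a replicate block (-0.13, adjusted p = 0.00316), although the letters were not taken as pairing the libraries. Other passes came without the filter on low counts (adjusted p = 0.0309), without control replicate B (-0.18, adjusted p = 0.0367) and without replicate D of siRNA 1423 (-0.18, adjusted p = 0.048). The value shrank to -0.07 without replicate A of siRNA 1423 (adjusted p = 0.434), and adjusted p ranged from 0.00316 to 0.434 over all alternatives.

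Gclc, whose product limits the rate of glutathione synthesis, moved the other way from Nqo1 with siRNA 1928. It was at 627, 594, 589 and 621 CPM in the control, at 577, 613, 593 and 598 CPM with siRNA 1423 and at 530, 543, 544 and 538 CPM with siRNA 1928. All 4 libraries of siRNA 1928 lay below the 8 others, and control and siRNA 1423 overlapped. Gclc fell with siRNA 1928 by 0.17 (log2 fold change -0.17, SE 0.0282, adjusted p = 2.82e-05) and was at -0.03 with siRNA 1423 (SE 0.0282, adjusted p = 0.502), whose 95% interval was -0.09 to 0.03. The difference between the siRNAs was -0.14 (SE 0.0283, adjusted p = 0.000239). With library size alone that difference shrank to -0.08 (adjusted p = 0.019, within a range of 2.27e-06 to 0.019 over all alternatives).

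The 2 superoxide dismutases differed in direction with siRNA 1928. Sod1, the copper and zinc enzyme, was at 54.3, 54.3, 54.7 and 53.5 CPM in the control, at 49.4, 48.0, 49.6 and 54.3 CPM with siRNA 1423 and at 42.1, 43.9, 44.3 and 45.7 CPM with siRNA 1928. Its libraries of siRNA 1928 lay below all others, and of siRNA 1423 replicate D alone reached the control range. Sod1 fell with siRNA 1928 (log2 fold change -0.30, SE 0.0433, adjusted p = 5.85e-06) and was lower there than with siRNA 1423 (-0.20, SE 0.0439, adjusted p = 0.000956). Its value of -0.11 with siRNA 1423 did not pass the test (SE 0.0431, adjusted p = 0.0796), but did without replicate D of siRNA 1423 (-0.15, adjusted p = 0.0195, within a range of 0.0195 to 0.505 over all alternatives).

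Sod2, the manganese enzyme of mitochondria, was the one member called in opposite directions. Control libraries were at 414, 432, 447 and 456 CPM, those of siRNA 1423 at 375, 385, 379 and 407 CPM and those of siRNA 1928 at 469, 468, 484 and 480 CPM. The 3 groups did not overlap, with siRNA 1423 lowest, the control between and siRNA 1928 highest. How many of all tested genes were called in opposite directions, or had 3 groups without overlap, was not counted. Neither is therefore read as a trait particular to Sod2. Sod2 fell with siRNA 1423 (log2 fold change -0.18, SE 0.0325, adjusted p = 0.000367) and rose with siRNA 1928 (0.12, SE 0.0323, adjusted p = 0.0041). The direct difference between the siRNAs was 0.30 (SE 0.0324, adjusted p = 1.26e-07). All 3 kept their direction and their call under each of the 21 alternatives run.

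Cat, the gene of catalase, changed only with siRNA 1423 among the tests against control. It was at 117, 111, 134 and 123 CPM in the control, at 94.8, 94.6, 97.1 and 95.9 CPM with siRNA 1423 and at 120, 118, 125 and 124 CPM with siRNA 1928. Libraries of siRNA 1423 were below the 8 others, while the control and siRNA 1928 overlapped. Cat fell with siRNA 1423 (log2 fold change -0.34, SE 0.0436, adjusted p = 5.33e-06), a size exceeded by 8.33% of tested genes. With siRNA 1928 it stood at 0.0093 (SE 0.0426, adjusted p = 0.879), with a 95% interval of -0.08 to 0.10 and a sign that turned under 4 alternatives. The difference between the siRNAs was itself called, at 0.35 (SE 0.0436, adjusted p = 8.45e-07).

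**Figure D2:**
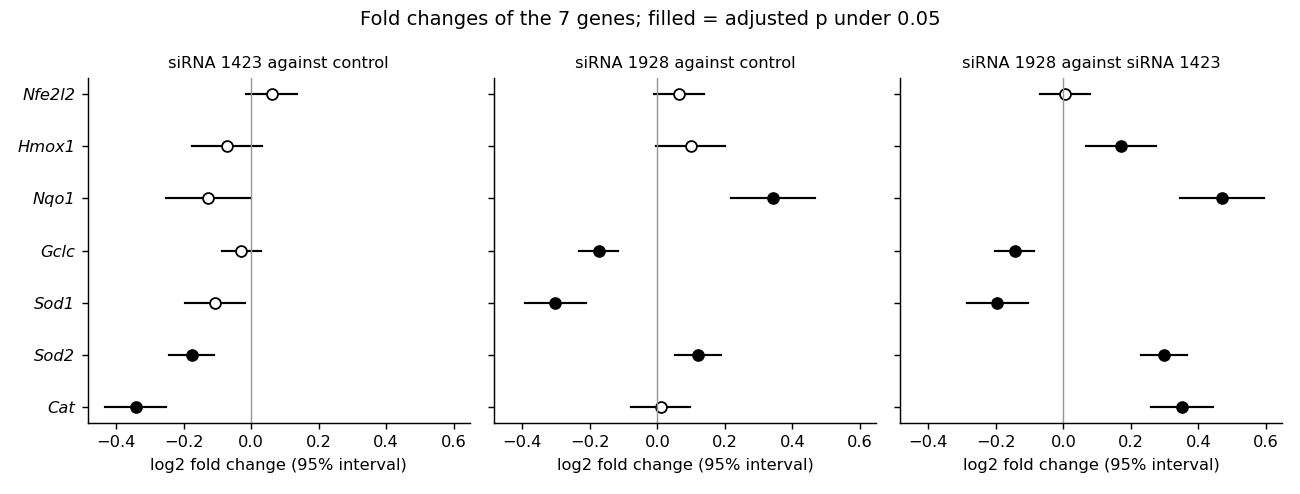
Log2 fold change of each gene (horizontal axis) with its 95% interval in the 3 comparisons; filled points have an adjusted p under 0.05. Sod2 is filled on both sides of 0 in the comparisons with control, and Nfe2l2 is open in all 3.

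Set directly against each other, the siRNAs differed in 6 of the 7 members, all but Nfe2l2. Hmox1, Nqo1, Sod2 and Cat were higher with siRNA 1928, where 21.3% of all tested genes were called higher, and Gclc and Sod1 were lower, where 23.0% were called lower. In 5 members the groups did not overlap, against 39.9% of tested genes. The median absolute log2 difference was 0.20 in the members and 0.14 in all tested genes. The balance of all calls depended on scaling: with library size alone 66.4% of the genes called between the siRNAs and 64.4% of those called for siRNA 1928 against control were higher with siRNA 1928. The members' calls between the siRNAs were again 4 higher and 2 lower, where 31.6% of tested genes were called higher and 16% lower. Against control, library size alone gave 4 members higher with siRNA 1928, Nfe2l2 and Hmox1 being the added ones, and 2 lower, where 30.4% of tested genes were called higher and 16.8% lower.

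Ratios of 2 genes within a library do not depend on scaling between libraries. They are ratios of expected counts, not of levels per length, so only their differences between groups are read. Reads of Nqo1 per read of Gclc were 1.48, 1.39, 1.66 and 1.58 in control libraries A to D, 1.30, 1.29, 1.56 and 1.56 with siRNA 1423 and 2.18, 2.02, 2.30 and 2.24 with siRNA 1928. All ratios of siRNA 1928 lay above the 8 others, 1.43-fold over control and 1.54-fold over siRNA 1423. Reads of Sod2 per read of Sod1 were 7.63 to 8.52 in the control, 7.50 to 8.03 with siRNA 1423 and 10.5 to 11.2 with siRNA 1928, again without overlap of siRNA 1928 with the others, and 1.34-fold and 1.40-fold higher.

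The ratio of Hmox1 to Nfe2l2 was 0.972 to 1.13 in the control, 0.893 to 1.03 with siRNA 1423 and 1.05 to 1.12 with siRNA 1928. It was 1.13-fold higher with siRNA 1928 than with siRNA 1423, without overlap, and overlapped with the control in both cases. Of 9 comparisons (3 ratios, 3 pairs of groups), the 5 without overlap had an exact two-sided permutation p of 0.0286, the smallest that 4 against 4 libraries can give, and an adjusted p of 0.0515, which misses the threshold. The other 4 had a p of 0.114 to 0.571 and an adjusted p of 0.171 to 0.571. These ratios were chosen after the members' values had been seen. For Nqo1 to Gclc and Sod2 to Sod1 with siRNA 1928, the lack of overlap was fixed in advance. The upper gene already lay above, and the lower gene below, all libraries of the other groups. Their p-values therefore add nothing to the tests of the single genes. The Hmox1 to Nfe2l2 difference between the siRNAs (0.1707 on the log2 scale) was nearly that of Hmox1 alone (0.1701), as Nfe2l2 differed by 0.0046. It adds little to the test of Hmox1.

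**Figure D3:**
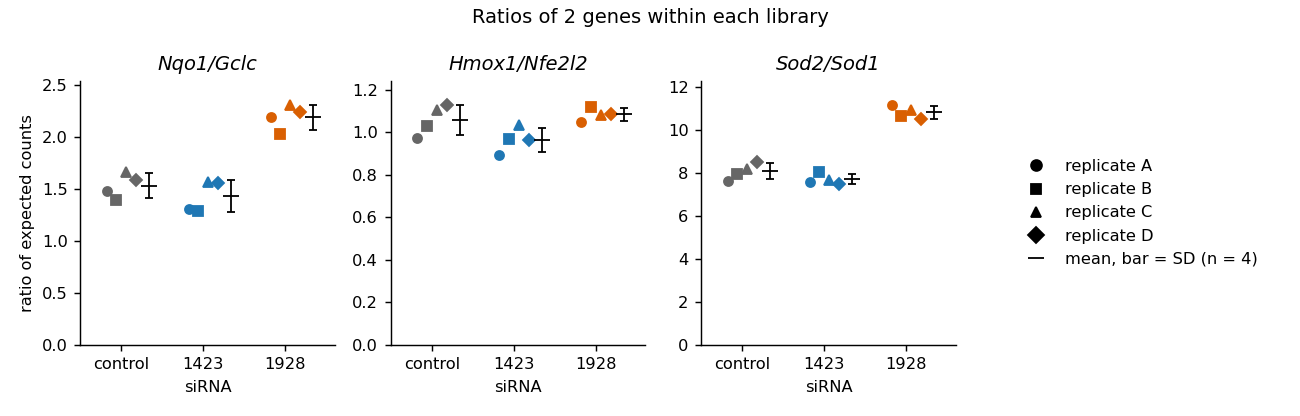
Ratio of the expected counts of 2 genes within each library (vertical axes start at 0), by siRNA, with the replicate letter as symbol and the mean and SD of 4 libraries as bars. The Nqo1 to Gclc and Sod2 to Sod1 ratios of siRNA 1928 lie above those of all 8 other libraries.

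Levels of some members differed between the replicate letters. Libraries C and D were both above A and B in all 3 groups for Hmox1, Nqo1 and Cat, in 2 groups for Nfe2l2, Sod1 and Sod2 and in 0 for Gclc. The same count was not made over all tested genes, so it is not read as a trait of the members. For Nqo1 the mean log2 CPM of C and D exceeded that of A and B by 0.16 in the control, 0.27 with siRNA 1423 and 0.12 with siRNA 1928. The labels do not say what the letters stand for. In replicates A and B alone and in C and D alone, respectively, the log2 fold change with siRNA 1928 was 0.36 and 0.32 for Nqo1, -0.19 and -0.16 for Gclc, -0.34 and -0.27 for Sod1 and 0.15 and 0.09 for Sod2. With siRNA 1423 it was -0.15 and -0.20 for Sod2 and -0.27 and -0.41 for Cat. Each of these kept its call within both pairs of letters. The 6 differences between the siRNAs did so too, Nqo1 with 0.55 and 0.40. Of all tested genes, 12.1% and 18.4% were called in the 2 pairs with siRNA 1423. The shares were 34.9% and 37.1% with siRNA 1928, and 32.6% and 36.9% between the siRNAs. How many calls of all genes were kept in both pairs was not counted, so the keeping is not read as particular to the members.

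**Figure D4:**
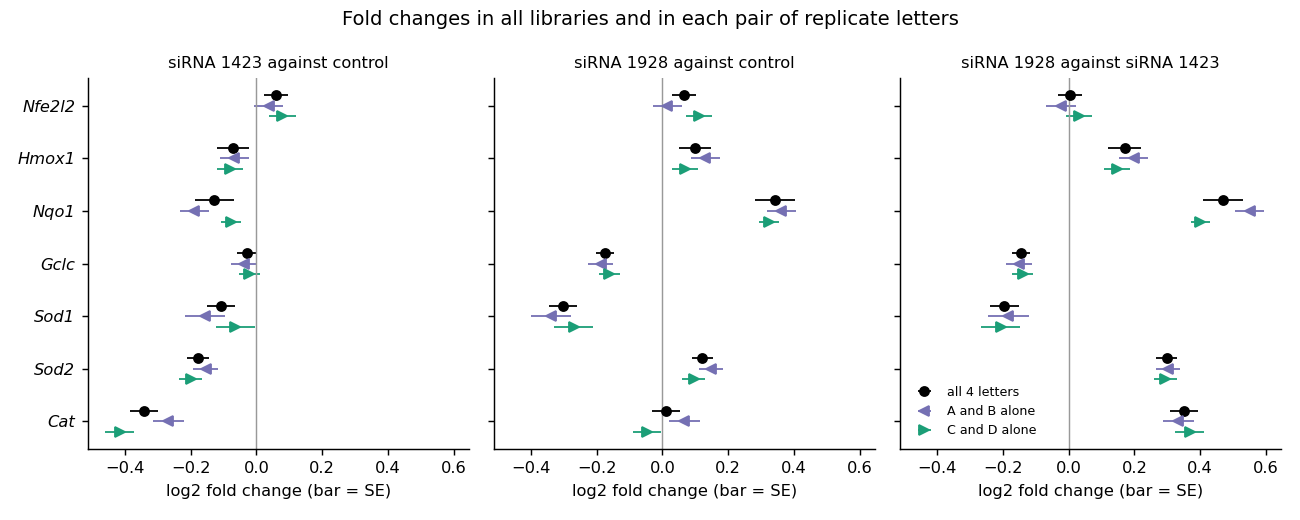
Log2 fold changes (horizontal axis, bar = SE) from all libraries, from replicates A and B alone and from C and D alone. The changes named as called for Nqo1, Gclc, Sod1, Sod2 and Cat lie on the same side of 0 in all 3, while Cat with siRNA 1928 lies at 0.07 and -0.05 in the pairs of letters.

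The likeness of other genes to Nqo1, the member with the largest mean absolute change over both siRNAs, was described by the Pearson correlation of log2 CPM over the 12 libraries. The libraries fall into 3 groups and differ in depth and letter, and all genes share these differences. Among 10499 other genes that averaged at least 5 CPM, the 2 most alike were ENSRNOG00000068887 (r = 0.979) and ENSRNOG00000027433 (r = 0.970), for which no symbol was available. ENSRNOG00000027433 fell with siRNA 1423 (log2 fold change -0.30, adjusted p = 0.00175) and rose with siRNA 1928 (0.37, adjusted p = 5.21e-05). ENSRNOG00000068887 rose with siRNA 1928 (0.18, adjusted p = 0.00263) and was at -0.07 with siRNA 1423 (adjusted p = 0.305). Of the members, Sod2 (r = 0.867) and Hmox1 (r = 0.857) were the closest to Nqo1, with 182 and 219 genes more alike. Cat (r = 0.714) and Nfe2l2 (r = 0.361) followed, with 1111 and 3308 genes more alike. Gclc (r = -0.703) and Sod1 (r = -0.591) ran against it. For these, 8946 and 8216 of the 10499 genes were more alike, so many other genes ran against Nqo1 more strongly.

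The members were deeply covered. The lowest expected count of any member in any library was 709 (Sod1) and the highest 29128 (Nqo1). Counts were not whole in all 12 libraries for Nqo1 and Sod2, in 11 for Gclc and Cat, 9 for Sod1, 8 for Nfe2l2 and 6 for Hmox1. Estimated counts are not whole where a program divides reads between genes or transcripts. The program behind these counts was not named in the labels, and how its division of reads bears on the levels was not tested.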

How the data were processed

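RNA of 12 libraries was measured by strand-marking RNA-seq after poly(A) selection, per the labels' protocols. The deposited values are expected counts per Ensembl gene ID, read as such from the values (71.3% whole within 1e-06), with 0 columns of other samples. Build mRatBN7.2 and the tools bcl2fastq 2.20, fastp 0.21.0 and DESeq2 1.24.0 are named in the submitters' processing notes. Not given in the sources used here: the aligner, the counter and the gene annotation. Counts were rounded, filtered with filterByExpr (minimum count 10, total 15), scaled by TMM and tested with edgeR 4.0.16 (quasi-likelihood, 1 mean per group over all 12 libraries; limma 3.58.1, R 4.3.3). SEs and 95% intervals come from the F statistic. The biological coefficient of variation was 3.95%. The fits were tested on simulated data. Alternatives were library size alone, DESeq2 1.42.0, limma voom, other filters, the compared groups alone, a replicate block, letter pairs and leaving out each library. Titles gave the groups. The 7 members and the lists were chosen with earlier results of these data known. All members are named; likeness was a correlation with the most changed member over genes averaging at least 5 CPM, limited to 2 IDs for lack of symbols. Planned lists of pathway genes and cell markers could not be assigned to IDs. The ratios, the count of letters and the non-whole counts were added later. Figures used matplotlib 3.10.9.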

Additional observations from a re-analysis of the deposited data

Results flagged for a closer look

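The response to the 2 siRNAs differed in 6 of the 7 members by edgeR's test of siRNA 1928 against siRNA 1423, where 44.3% of all 12731 tested genes were called. In a fit of genes averaging at least 5 CPM, 50.6% were called. On the log2 scale siRNA 1928 was higher by 0.47 for Nqo1, 0.35 for Cat, 0.30 for Sod2 and 0.17 for Hmox1, and the difference was -0.20 for Sod1 and -0.14 for Gclc. No library lay far from the other 3 of its group by Dixon's test in the 21 groups of values searched, where chance picks out about 1 in 20.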

How the results depend on the processing

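Of 441 recomputed fold changes (21 results, 21 alternatives), 420 kept direction and call, 13 gained a call, 0 lost one and 8 changed sign. Values that stayed uncalled count as kept. Some alternatives left out a library of the group not compared, which hardly moves the fold change, so the 420 overstate stability. The sign changes concern values near 0. Cat with siRNA 1928 was -0.0471 with replicates C and D alone and -0.0307 to 0.0619 when each library was left out, below 0 without control replicate A (-0.0088) or B (-0.0307) or replicate C of siRNA 1928 (-0.0027). Nfe2l2 between the siRNAs was -0.0228 with replicates A and B alone and -0.0228 to 0.0356 when each library was left out, below 0 without replicate B of siRNA 1423 (-0.0102) or replicate C (-0.0228) or D (-0.0050) of siRNA 1928. The cause was not tested. Members called with siRNA 1423 numbered 2 to 4 when each library was left out, with 4 without its replicate D, where 19.6% of tested genes were called.

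Over all genes, siRNA 1423 had 1535 calls with replicates A and B alone and 2361 with C and D alone, against 2903 with all letters. Both pairs of letters have fewer samples, and the difference between them was not tested. The letters were not taken as pairing the libraries, because the rule set beforehand asked for every same-letter correlation to be over 0.1. Deviations of same-letter libraries from their group means correlated at 0.0296 to 0.134, over 0.1 in 5 of 12 pairs. All were above 0, and 7 of 12 libraries correlated best with their own letter. Missing this rule does not show that the letters share nothing. Different letters correlated at -0.0263 to 0.162 within A and B or within C and D, and at -0.169 to 0.0374 across these pairs of letters. With the letter as a replicate block, 3, 5 and 6 members were called (2, 4 and 6 without it). Of all tested genes, 26.4%, 48.5% and 47.3% were called (22.8%, 45.2% and 44.3% without it). The added calls were Nqo1 with siRNA 1423 (-0.13, adjusted p = 0.00316) and Hmox1 with siRNA 1928 (0.10, adjusted p = 0.00508). The block lowered the SE from 0.0605 to 0.0318 for Nqo1 and from 0.0493 to 0.02855 for Hmox1. Whether these 2 pass therefore depends on whether the letters are modelled.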
